A study of Mus musculus with 16 samples.

Results

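The myelin genes described here are *Mbp*, *Mog*, *Mag*, *Mobp*, *Cnp*, *Mal*, *Cldn11*, *Opalin* and *Ermn*. They were picked by symbol from the deposited table of log2 CPM (read counts scaled by library size), which holds 16707 genes, and 8 of the 9 were found in it. *Ermn* was absent from the table, and its Salmon reads ranged from 0 to 21 per library, with 0 in 8 of 16 libraries.

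RNA was sequenced from primary mouse astrocytes in 16 libraries, made from 4 WT litters (C57BL6J) and 4 *Nlrx1*-/- litters (KO below), each giving a vehicle and an LPS + IFNγ library. The cells came from whole brains of P6 pups, were selected with beads against the astrocyte surface antigen ACSA-2 and were grown in serum-free medium with HB-EGF, in both genotypes alike. Vehicle was water, and stimulated wells received 500 ng/mL of lipopolysaccharide (LPS, from the outer membrane of bacteria) and 10 ng/mL of the cytokine IFNγ, in either case for 24 h. Pups of a litter were pooled and each litter had 1 genotype, so the genotypes were compared between litters and the treatments within them. The results text of the study gives an earlier pup age and a legend gives buffered saline as vehicle, while the labels and methods give the age and vehicle stated here.

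Myelin is the lipid-rich sheath that oligodendrocytes wrap around axons in the central nervous system. Its compact layers are held together by structural proteins, its inner face to the axon carries adhesion proteins, and its outer face and edges carry surface and junction proteins. The genes are switched on as precursor cells mature into oligodendrocytes, some earlier than others, under the transcription factors SOX10 and MYRF. In astrocytes they are not markers of the cell type.

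Members of the group that moved together can be compared at their promoters. RefSeq windows of 300 bases, from 250 before to 50 after a transcription start (GRCm38.p6), were matched by symbol for 8 of the 9 genes, with 3 starts for *Mag* and 10 windows in all. The first *Mag* window and those of *Cnp*, *Cldn11* and *Mal* are shown, since these 4 genes fell in stimulated KO cultures, as described further on. They lie at chr7:30914814-30915113 (minus strand), chr11:100574689-100574988 (plus strand), chr3:31149670-31149969 (plus strand) and chr2:127656646-127656945 (minus strand). Capitals mark the letters of the patterns searched on both strands, which were the SOX core ACAAAG or ACAATG, the MYRF core CTGGCAC and the E-box CAGCTG.

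Mag promoter: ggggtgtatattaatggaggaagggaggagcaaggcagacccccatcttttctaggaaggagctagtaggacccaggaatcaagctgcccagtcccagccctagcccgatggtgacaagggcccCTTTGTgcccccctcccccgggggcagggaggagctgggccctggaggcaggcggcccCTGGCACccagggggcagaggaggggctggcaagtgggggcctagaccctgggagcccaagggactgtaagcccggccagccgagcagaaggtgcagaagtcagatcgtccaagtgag
Cnp promoter: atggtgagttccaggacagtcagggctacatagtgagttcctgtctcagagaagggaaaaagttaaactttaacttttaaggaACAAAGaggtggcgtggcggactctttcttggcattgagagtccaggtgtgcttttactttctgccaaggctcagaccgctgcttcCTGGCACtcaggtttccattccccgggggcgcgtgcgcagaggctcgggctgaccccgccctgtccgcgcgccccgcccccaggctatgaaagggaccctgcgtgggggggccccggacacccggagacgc
Cldn11 promoter: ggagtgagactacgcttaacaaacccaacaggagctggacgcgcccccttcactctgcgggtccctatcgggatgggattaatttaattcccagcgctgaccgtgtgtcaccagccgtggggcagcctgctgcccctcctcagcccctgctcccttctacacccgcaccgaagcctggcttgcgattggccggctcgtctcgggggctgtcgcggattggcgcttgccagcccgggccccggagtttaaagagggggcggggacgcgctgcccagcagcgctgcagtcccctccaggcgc
Mal promoter: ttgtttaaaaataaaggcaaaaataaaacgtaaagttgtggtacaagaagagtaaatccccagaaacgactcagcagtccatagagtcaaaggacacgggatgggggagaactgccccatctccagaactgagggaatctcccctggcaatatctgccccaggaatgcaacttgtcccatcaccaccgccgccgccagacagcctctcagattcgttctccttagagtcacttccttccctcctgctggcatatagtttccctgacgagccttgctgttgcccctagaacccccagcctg

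The *Mag* window holds CTTTGT, the reverse complement of the SOX core, 126 bases before the start and the MYRF core 68 bases before it. In the *Cnp* window the SOX core begins 167 and the MYRF core 81 bases before the start. The windows of *Cldn11* and *Mal* hold none of these letters. Among 32851 promoter windows of the same length, 18.7% hold ACAAAG, 12.6% ACAATG, 5.01% CTGGCAC and 16.3% CAGCTG. Of the 10 member windows 5 hold ACAAAG, 1 ACAATG, 4 CTGGCAC and 1 CAGCTG. The first and second *Mag* windows overlap and hold the same CTTTGT and CTGGCAC sites, so each site counts in 2 windows. The ACAAAG windows belong to *Mag*, *Mobp*, *Cnp* and *Opalin*, and the CTGGCAC windows to *Mag*, *Cnp* and *Opalin*. The windows of *Mobp* and *Opalin*, whose response did not pass in KO, hold ACAAAG on one of the strands too. A match thus did not separate the genes that fell from the others. A match is a run of letters, and binding was not measured in these cultures. No *Mbp* window was used here.

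Salmon assigned 27259420 to 43752903 read pairs per library, with a median of 35554625. *Nlrx1*, the gene deleted in the KO litters, lay between 4.08 and 4.44 log2 CPM in WT and between 1.09 and 2.96 log2 CPM in KO libraries, so the groups did not overlap and some reads remained in every KO library. All 10 astrocyte markers on a list of *Gfap*, *Aqp4*, *Sox9*, *Aldh1l1*, *Slc1a3*, *Slc1a2*, *Atp1b2*, *S100b*, *Gja1* and *Aldoc* were in the table, with a summed level of 6868 to 10848 CPM in WT vehicle and 5386 to 8416 CPM in KO vehicle. All 9 markers of oligodendrocyte precursors were in it too, at a summed 3792 to 4131 CPM in WT vehicle and 3850 to 4154 CPM in KO vehicle. A sum weighs abundant markers most. The median precursor marker lay at 6.91 to 7.07 log2 CPM in WT vehicle and at 5.91 to 6.69 log2 CPM in KO vehicle. Of 11 microglia markers only *P2ry12* was in the table, at up to 1.78 CPM, and none of 4 endothelial markers was.

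KO litters 2 and 4 stood apart in the myelin genes before any treatment. *Mbp*, *Mag* and *Cldn11* were far lower in both vehicle libraries of these litters than in KO litters 1 and 3 or in any WT litter. In KO litter 1 these 3 genes also lay below every WT vehicle library, by less. Results that rest on the KO litters are given with KO litters 2 and 4 and without them. In bulk RNA, fewer cells of a type and less RNA per cell cannot be told apart.

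Within WT vehicle libraries the genes spanned a wide range of levels per length. In TPM (reads scaled by both transcript length and library size), *Cnp* had a level of 398 ± 47.1 (SD, n = 4 litters), *Mbp* 149 ± 71.9, *Cldn11* 31.4 ± 11.5 and *Mag* 12.8 ± 5.68. Litter ranges of these 4 neighbours in the order did not overlap, since *Cnp* began at 335.5 TPM and *Mbp* ended at 221 TPM, *Mbp* began at 85.7 and *Cldn11* ended at 41.6, and *Cldn11* began at 20.6 and *Mag* ended at 18.2. Below them came *Mobp* at 2.50 ± 2.49 TPM and *Mal* at 1.49 ± 0.517 TPM, which did not differ beyond their spread. *Mobp* TPM covers the paired transcripts only. *Mog* at 0.245 ± 0.254 TPM, *Opalin* at 0.224 ± 0.179 TPM and *Ermn* at 0.111 ± 0.189 TPM were lowest and overlapped each other. The 3 lowest genes rest on at most 15.3, 16 and 21 reads in a library, against 5219 or more for *Cnp*, so a difference in them was hardly detectable at this depth.

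**Figure D1:**
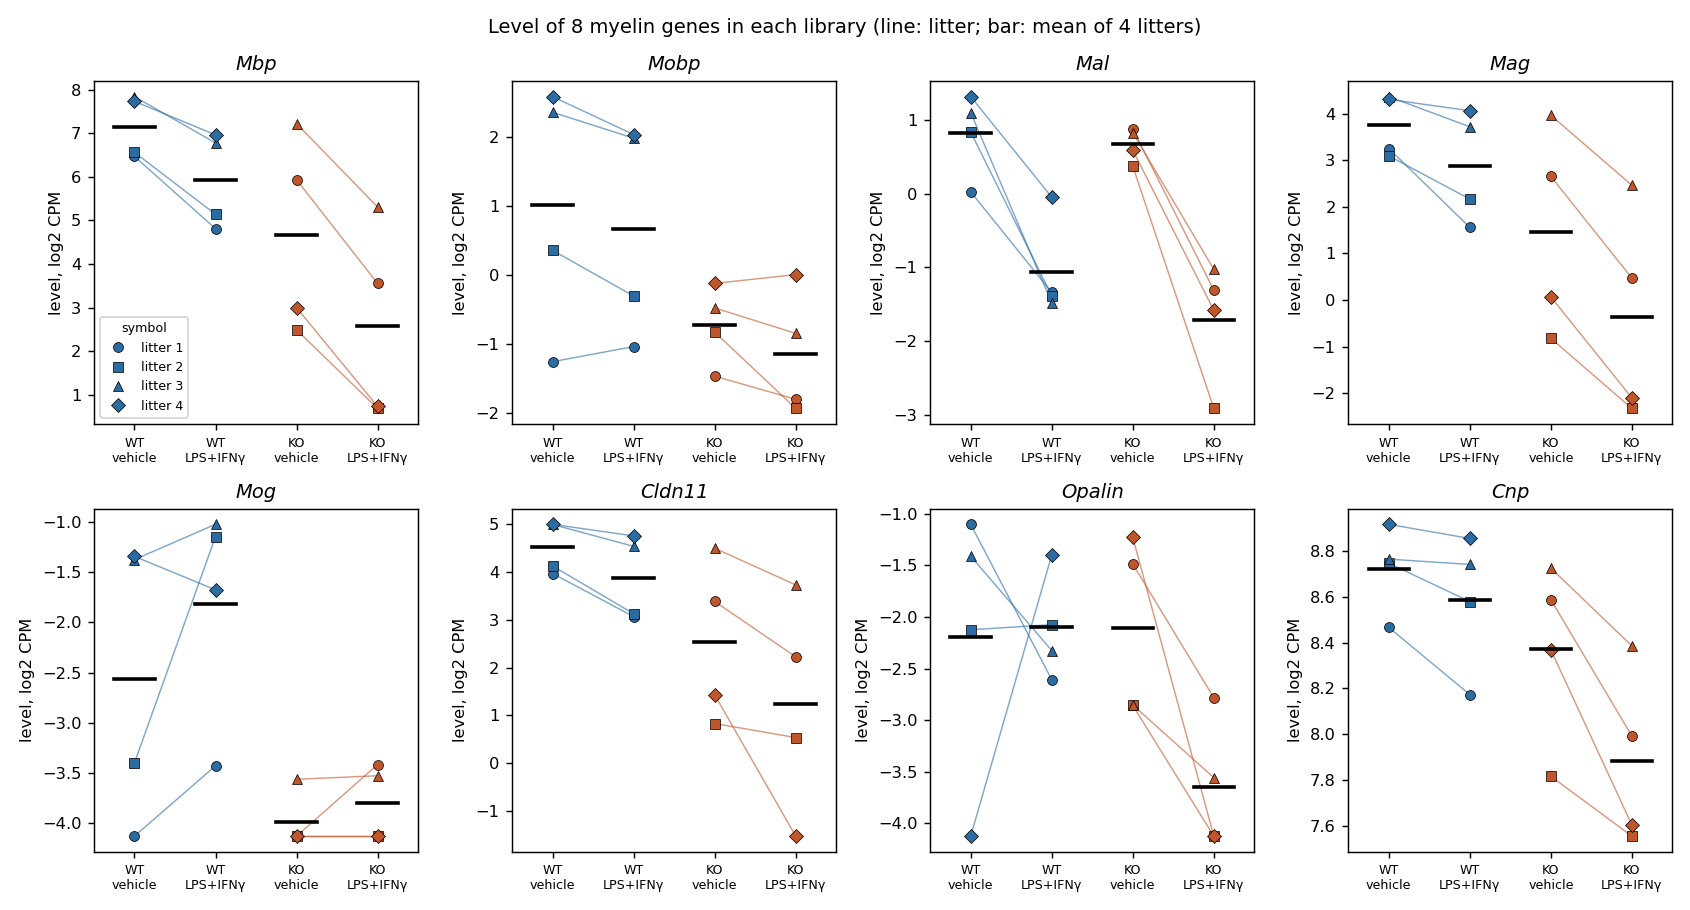
Level (log2 CPM, y axes differ between panels) of 8 myelin genes in the 16 libraries by condition on the x axis, where symbols mark litters, thin lines join the vehicle and LPS + IFNγ library of a litter and bars mark the mean of 4 litters. KO litters 2 and 4 lie lowest for *Mbp*, *Mag* and *Cldn11*, and the bottom value of -4.13 in *Mog* and *Opalin* stands for no read.

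In WT cultures LPS + IFNγ lowered *Mbp*, *Mag* and *Mal*, and in KO cultures it lowered these 3 together with *Cnp* and *Cldn11*. Each change was tested in edgeR's quasi-likelihood fit with litters as blocks, adjusted over 16066 genes, and a gene passed at an adjusted p under 0.05. In WT, 3 of 8 members passed as lower and 0 as higher, where 20.2% of all genes passed as lower and 23.7% as higher. In KO, 5 of 8 passed as lower and 0 as higher, against 24.2% and 25.3% of all genes. Their median log2 change was -0.49 in WT and -1.53 in KO, beside -0.02 and -0.03 over all genes tested. Without KO litters 2 and 4, a fit added after the data were seen, the same 5 genes passed in KO and the median was -1.49. Of all 16612 genes in that fit, 2584 passed as lower in KO. A fit without litter blocks left 1 call in each genotype, that of *Mal*. There 2341 of 16066 genes passed as lower in WT and 3060 in KO. *Mbp*, *Mag*, *Cnp*, *Mal* and *Cldn11* were also lower in the stimulated library of every litter, in both genotypes. That made 5 of 8 members in WT and, with *Opalin*, 6 of 8 in KO, while 30.0% of the table's genes in WT and 29.0% in KO were lower in all 4 litters.

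**Figure D2:**
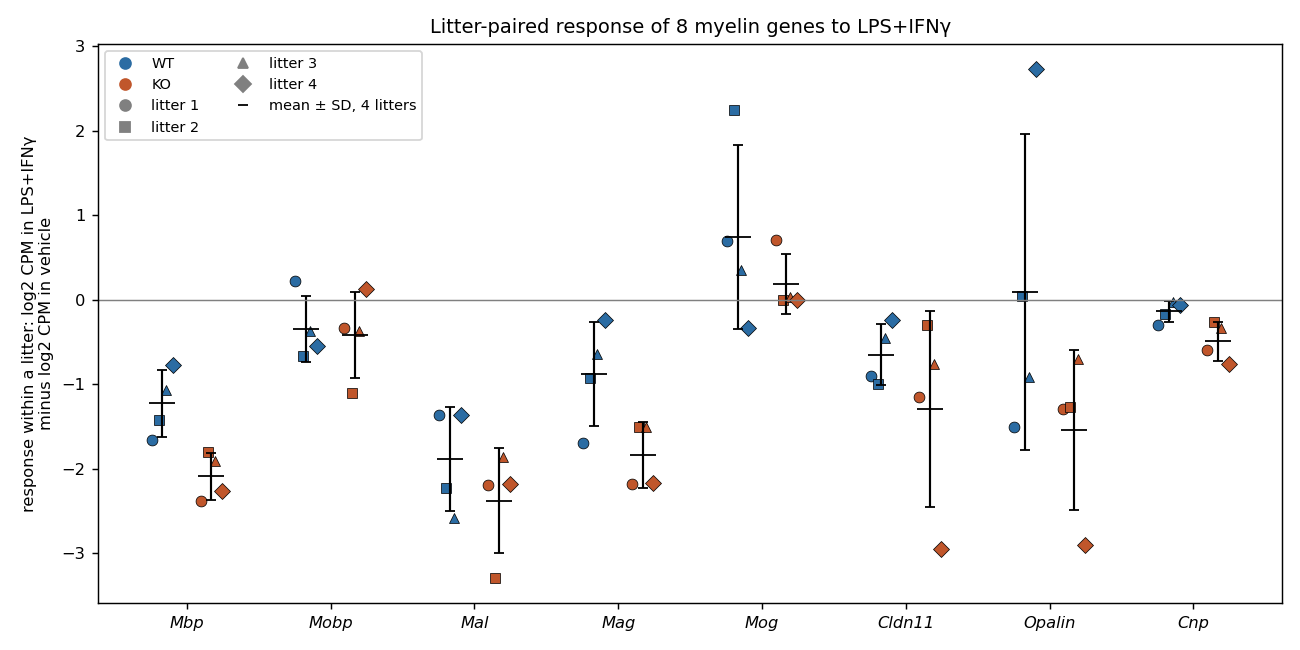
Response of 8 myelin genes within each litter (log2 CPM in LPS + IFNγ minus log2 CPM in vehicle, y axis) for WT and KO, where symbols mark litters and black bars show the mean ± SD of 4 litters. *Mbp* responses lay between -1.66 and -0.77 in WT and between -2.38 and -1.80 in KO, and *Mog* and *Opalin* scattered to both sides of 0 in WT.

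*Mbp* encodes myelin basic protein, which seals the cytoplasmic faces of compact myelin. In WT litters 1 to 4 its level was 6.47, 6.56, 7.84 and 7.73 log2 CPM in vehicle and 4.81, 5.14, 6.78 and 6.96 log2 CPM in LPS + IFNγ. In KO litters 1 to 4 it was 5.93, 2.49, 7.22 and 2.998 log2 CPM in vehicle and 3.55, 0.69, 5.31 and 0.73 log2 CPM in LPS + IFNγ. WT litters 3 and 4 were high and litters 1 and 2 lower, KO litter 3 lay within the WT range in both treatments, and KO litters 2 and 4 lay below every WT library. KO litter 1 lay below the lowest WT litter in vehicle (5.93 against 6.47) and in LPS + IFNγ (3.55 against 4.81). On the linear scale the KO vehicle libraries spanned 5.55 to 149 CPM, a 26.8-fold range, against 2.59-fold in WT vehicle. The SD of *Mbp* over KO vehicle litters was 2.28 log2 units, larger than that of 99.8% of the table's genes in the same libraries.

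The response of *Mbp* was a log2 change of -1.23 ± 0.13 (SE) in WT (edgeR, adjusted p = 3.80e-05) and -2.21 ± 0.16 in KO (edgeR, adjusted p = 1.58e-06). By litter the deposited log2 CPM changed by -1.66, -1.42, -1.06 and -0.77 in WT and by -2.38, -1.80, -1.91 and -2.27 in KO. On this scale every KO litter fell by more than every WT litter. With a pseudocount of 0.5 CPM the groups overlapped, at -1.56 in KO litter 2 and -1.64 in WT litter 1, and with 1 CPM at -1.36 and -1.63. With KO litters 1 and 3 alone the KO change was -2.15 ± 0.20 (edgeR, adjusted p = 2.45e-05).

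Reads of *Mbp* were divided by Salmon among 17 annotated transcripts, which share sequence. The longest, of 4820 nt, took 2.81% to 11.2% of *Mbp* reads in WT libraries, and 4.00% to 47.8% in KO libraries. In KO litters 2 and 4 its share was 39.6% and 21.3% in vehicle and 45.8% and 47.8% in LPS + IFNγ, and in stimulated KO litter 1 it was 22.2%. In KO litter 2 the LPS + IFNγ shares rest on 17.4 reads of the longest transcript and 20.6 of all others, and in KO litter 4 on 33 and 36 reads. The longest transcript changed less within litters than the rest. Its mean log2 response was -0.56 ± 0.21 (SD, n = 4 litters) in WT, against -1.24 ± 0.41 for the other transcripts summed, and -1.11 ± 0.70 against -2.39 ± 0.30 in KO. These shares are Salmon's estimates and were not tested.

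**Figure D3:**
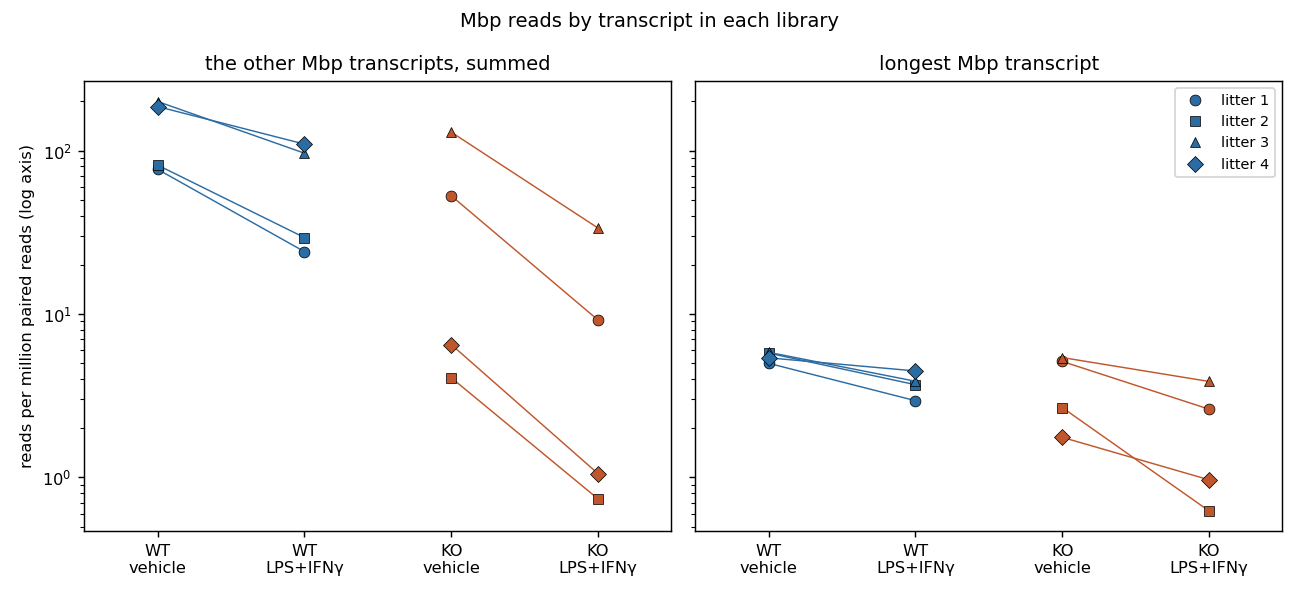
CPM over paired reads (log axis) for all *Mbp* transcripts except the longest, summed (left), and for the longest *Mbp* transcript (right), in 16 libraries by condition, where symbols mark litters and lines join the libraries of a litter. The sum of the others ran from 0.738 to 199.9 across libraries and the longest transcript from 0.623 to 5.83.

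*Mobp* encodes myelin-associated oligodendrocyte basic protein of compact myelin (GRCm39, chr9:119973770-120011273, plus strand). Levels of *Mobp* were -1.25, 0.36, 2.35 and 2.58 log2 CPM in vehicle and -1.03, -0.30, 1.98 and 2.03 log2 CPM in LPS + IFNγ for WT litters 1 to 4. KO litters 1 to 4 had -1.46, -0.82, -0.48 and -0.12 log2 CPM in vehicle and -1.80, -1.93, -0.84 and 0.01 log2 CPM in LPS + IFNγ. WT litters 3 and 4 stood high, WT litter 1 lay among the KO litters, and KO litter 4, low in *Mbp*, was the highest of the KO litters here. The log2 change was -0.33 ± 0.46 (SE) in WT and -0.39 ± 0.56 in KO (edgeR, adjusted p = 0.590 and 0.590). Reads paired with the *Mobp* symbol came to 32.2% to 114% of the counts recovered from the deposited CPM, a ratio of separately derived counts that was lowest in KO litter 4 vehicle, at 12 against 37.3 reads. On the recovered counts the response again passed in neither genotype.

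*Mal* encodes a small membrane proteolipid of the sheath (GRCm39, chr2:127475142-127498615, minus strand). In WT litters 1 to 4 *Mal* stood at 0.02, 0.84, 1.10 and 1.32 log2 CPM in vehicle and at -1.34, -1.39, -1.48 and -0.05 log2 CPM in LPS + IFNγ. In KO litters 1 to 4 *Mal* stood at 0.88, 0.37, 0.83 and 0.59 log2 CPM in vehicle and at -1.31, -2.92, -1.03 and -1.59 log2 CPM in LPS + IFNγ. Vehicle libraries lay above stimulated ones in both genotypes, the groups did not overlap, and KO litters 2 and 4 were not set apart in vehicle. The log2 change was -2.01 ± 0.40 (SE) in WT and -2.54 ± 0.41 in KO (edgeR, adjusted p = 0.00217 and 0.000526). *Mal* had 2 to 100 reads per library, and without KO litters 2 and 4 its KO change was -2.17 ± 0.51 (edgeR, adjusted p = 0.00837).

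*Mag* encodes myelin-associated glycoprotein, an adhesion molecule on the layer that faces the axon (GRCm39, chr7:30598464-30614474, minus strand). Its level in WT litters 1 to 4 was 3.25, 3.09, 4.36 and 4.30 log2 CPM in vehicle and 1.56, 2.16, 3.72 and 4.06 log2 CPM in LPS + IFNγ. For KO litters 1 to 4 it was 2.65, -0.82, 3.96 and 0.06 log2 CPM in vehicle and 0.47, -2.33, 2.46 and -2.10 log2 CPM in LPS + IFNγ. As for *Mbp*, WT litters 3 and 4 were high and KO litters 2 and 4 lowest. *Mag* changed by -0.87 ± 0.22 (SE) on the log2 scale in WT and by -1.92 ± 0.28 in KO (edgeR, adjusted p = 0.00861 and 0.000270). Without KO litters 2 and 4, which had as few as 4 reads, its KO change was -1.80 ± 0.32 (edgeR, adjusted p = 0.00175).

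*Mog* encodes myelin oligodendrocyte glycoprotein of the outermost layer, which appears late in maturation (GRCm39, chr17:37321521-37334350, minus strand). WT litters 1 to 4 had 0, 1.09, 15.3 and 12.7 *Mog* reads in vehicle and 1, 13.1, 12.3 and 9.53 in LPS + IFNγ. KO litters 1 to 4 had 0, 0, 1.01 and 0 reads in vehicle and 1.24, 0, 1.07 and 0 in LPS + IFNγ. Every library with more than 2 reads was thus a WT library, and WT litter 1 was as low as the KO litters. The response passed in neither genotype (edgeR, adjusted p = 0.436 in WT and 0.706 in KO), and no fold is given for so few reads.

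*Cldn11* encodes claudin 11, which forms the tight junctions between myelin layers (GRCm39, chr3:31203900-31218495, plus strand). Its level was 3.97, 4.12, 4.99 and 4.99 log2 CPM in vehicle and 3.06, 3.13, 4.53 and 4.75 log2 CPM in LPS + IFNγ for WT litters 1 to 4. In the KO litters it was 3.38, 0.83, 4.49 and 1.43 log2 CPM in vehicle and 2.23, 0.54, 3.73 and -1.52 log2 CPM in LPS + IFNγ. KO litters 2 and 4 were lowest again, and KO litter 4 moved most after stimulation. The log2 change was -0.65 ± 0.25 (SE) in WT (edgeR, adjusted p = 0.0599) and -1.14 ± 0.30 in KO (edgeR, adjusted p = 0.00845). The KO change of *Cldn11* without KO litters 2 and 4 was -0.95 ± 0.19 (edgeR, adjusted p = 0.00388). The WT response did not pass in the main fit and did pass with DESeq2, limma-voom and 5 other fits.

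*Opalin* encodes a transmembrane protein of the oligodendrocyte surface (GRCm39, chr19:41045254-41065553, minus strand). *Opalin* reads in WT litters 1 to 4 were 13, 5, 15 and 0 in vehicle and 3, 6, 4 and 12 in LPS + IFNγ. In KO litters 1 to 4 they were 11, 3, 3 and 16 in vehicle and 3, 0, 1 and 0 in LPS + IFNγ. In log2 CPM the KO vehicle libraries, at -2.86 to -1.23, lay within the WT range of -4.13 to -1.10, and the 4 stimulated KO libraries, at -2.78 or less, lay below the lowest stimulated WT library at -2.61. The response passed in neither genotype (edgeR, adjusted p = 0.982 in WT and 0.0908 in KO).

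*Cnp* encodes the cyclic nucleotide phosphodiesterase that keeps cytoplasmic channels of the sheath open, and it is switched on early in the oligodendrocyte lineage (GRCm39, chr11:100465730-100482936, plus strand). Its level was 8.47, 8.75, 8.76 and 8.92 log2 CPM in vehicle and 8.17, 8.58, 8.74 and 8.86 log2 CPM in LPS + IFNγ for WT litters 1 to 4. KO litters 1 to 4 had 8.59, 7.82, 8.73 and 8.37 log2 CPM in vehicle and 7.99, 7.55, 8.39 and 7.60 log2 CPM in LPS + IFNγ. *Cnp* varied far less between litters than *Mbp*, with an SD of 0.40 log2 units in KO vehicle, and KO litters 2 and 4 were lowest here too. The log2 change was -0.15 ± 0.08 (SE) in WT (edgeR, adjusted p = 0.177) and -0.51 ± 0.08 in KO (edgeR, adjusted p = 0.000557). For *Cnp* the KO change without KO litters 2 and 4 was -0.47 ± 0.08 (edgeR, adjusted p = 0.00170). Of its 2 transcripts, the shorter one of 2333 nt took 82.0% to 96.7% of the reads.

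Whether the genotypes responded differently was tested as the interaction, the KO response minus the WT response. By edgeR 0 of 8 members and 0% of all 16066 genes passed in either direction. At an unadjusted p under 0.05 there were 3 members, *Mbp* with a difference of -0.98 ± 0.21 (SE) log2 units (edgeR, adjusted p = 0.217), *Mag* with -1.04 ± 0.36 (adjusted p = 0.233) and *Cnp* with -0.36 ± 0.12 (adjusted p = 0.229). All 3 changes were more negative in KO. Among all 16066 genes, 2469 had an unadjusted p under 0.05 in this test. DESeq2 called *Mbp* alone, with 1.23% of genes called lower, and limma-voom and limma on the deposited log2 CPM called 0 members. The median difference was -0.51 over the members and -0.02 over all genes, and all 8 members had a negative one. Without overlap between the litters' responses, KO lay below WT for 1 of 8 members, *Mbp*, and for 5.25% of the table's genes, and with a pseudocount of 0.5 or 1 CPM *Mbp* overlapped too. With KO litters 1 and 3 alone edgeR again called 0 members. In that fit 3 members and 1374 of 16612 genes had an unadjusted p under 0.05.

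Levels were also compared between genotypes within each treatment, in a fit without litter terms. In vehicle all 8 members had a lower fitted level in KO, with a median log2 difference of -1.37 against 0.00083 over all genes, and edgeR called 0 members and 0% of genes in either direction. *Nlrx1*, the deleted gene, did not pass in this fit either, at -1.70 ± 0.24 (SE) log2 units (edgeR, adjusted p = 0.0538). The 0 calls therefore do not show equal levels. Of the members, *Mobp* and *Mog* had an unadjusted p under 0.05 by edgeR, as did 3152 of all 16066 genes. DESeq2 called *Mobp* (with 1.84% of genes called lower), and limma-voom and limma on the deposited log2 CPM called 0 members. *Mobp* differed by -3.01 ± 1.02 (SE) log2 units (edgeR, unadjusted p = 0.00944, adjusted p = 0.148), and by -2.43 ± 0.82 on the counts recovered from the deposited CPM (edgeR, adjusted p = 0.138). DESeq2 was not run on the recovered counts. *Mog* had an unadjusted p of 0.00473 (edgeR, adjusted p = 0.129) on at most 15.3 reads. *Mbp* differed by -1.50 ± 1.01 (edgeR, adjusted p = 0.419), *Cldn11* by -1.39 ± 0.84 (adjusted p = 0.370) and *Mal* by -0.23 ± 0.43 (adjusted p = 0.805). For 0 of 8 members did all KO litters lie below all WT litters, where 3.43% of the table's genes did so. Without KO litters 2 and 4 the vehicle difference of *Mbp* was -0.59 ± 0.69 and the members' median -0.50.

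In LPS + IFNγ the 8 members were again lower in KO, with a median log2 difference of -2.43 against -0.01 over all genes. By edgeR 0 of 8 passed, where 2.38% of genes passed as lower and 2.65% as higher. *Mog* and *Cnp* came nearest (edgeR, adjusted p = 0.0567 and 0.0568), where *Cnp* differed by -0.70 ± 0.21 (SE) log2 units and *Mbp* by -2.49 ± 1.06 (edgeR, adjusted p = 0.138). *Mobp* differed by -2.89 ± 1.06 (edgeR, adjusted p = 0.0943), and by -2.25 ± 0.84 on recovered counts (edgeR, adjusted p = 0.0924), on which DESeq2 was not run. The unadjusted p by edgeR was under 0.05 for 6 members (*Mbp*, *Mog*, *Mag*, *Mobp*, *Cnp* and *Opalin*) and for 4559 of all 16066 genes. DESeq2 called *Mobp* and *Cnp* (with 7.69% of genes called lower). With limma on the deposited log2 CPM *Cnp* was called (with 736 of 16707 genes called lower), and limma-voom called 0 members. The KO litters all lay below the WT litters for 1 of 8 members, *Opalin*, and for 6.23% of the table's genes. For *Opalin* this rests on 0 to 3 reads in KO and 3 to 12 in WT, with 3 reads each in KO litter 1 and WT litter 1. Without KO litters 2 and 4 edgeR called 0 members, the median was -1.50 and *Mbp* differed by -1.56 ± 0.73. Leaving out KO litter 3, the KO litter with the highest *Mbp*, gave 4 calls (*Mbp*, *Mag*, *Cnp* and *Cldn11*), and leaving out WT litter 1, the lowest for *Mog*, gave 2 (*Mog* and *Cnp*). Of all genes, 1834 of 16298 passed as lower without KO litter 3 and 767 of 16323 without WT litter 1.

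KO litters 2 and 4 were also low in *Myrf* and, by less, in *Sox10*, but not in *Olig1* or *Olig2*. Relative to the mean of the 4 WT vehicle libraries, *Mbp* in KO litters 1 to 4 was at -1.22, -4.66, 0.07 and -4.15 log2 units and *Mag* at -1.10, -4.57, 0.21 and -3.69. *Myrf*, the transcription factor of myelin genes, was at -0.54, -2.98, 0.26 and -2.47. *Sox10*, which marks the whole lineage, was at -0.02, -1.02, 0.24 and -0.33, so its spread was smaller. *Olig1* and *Olig2*, factors of the lineage that are also active in precursors, did not share the low values, and *Olig2* was at 0.27, 0.50, -0.48 and 0.37. *Pdgfra*, a receptor that marks precursors, was at -0.32, -1.06, -0.29 and -0.75. It does not stand for all 9 precursor markers. In KO litters 2 and 4 alike, 6 of them lay below all WT vehicle libraries and 1 above all. *Myrf*, *Sox10*, *Olig1*, *Olig2* and *Pdgfra* were chosen after their values were seen.

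**Figure D4:**
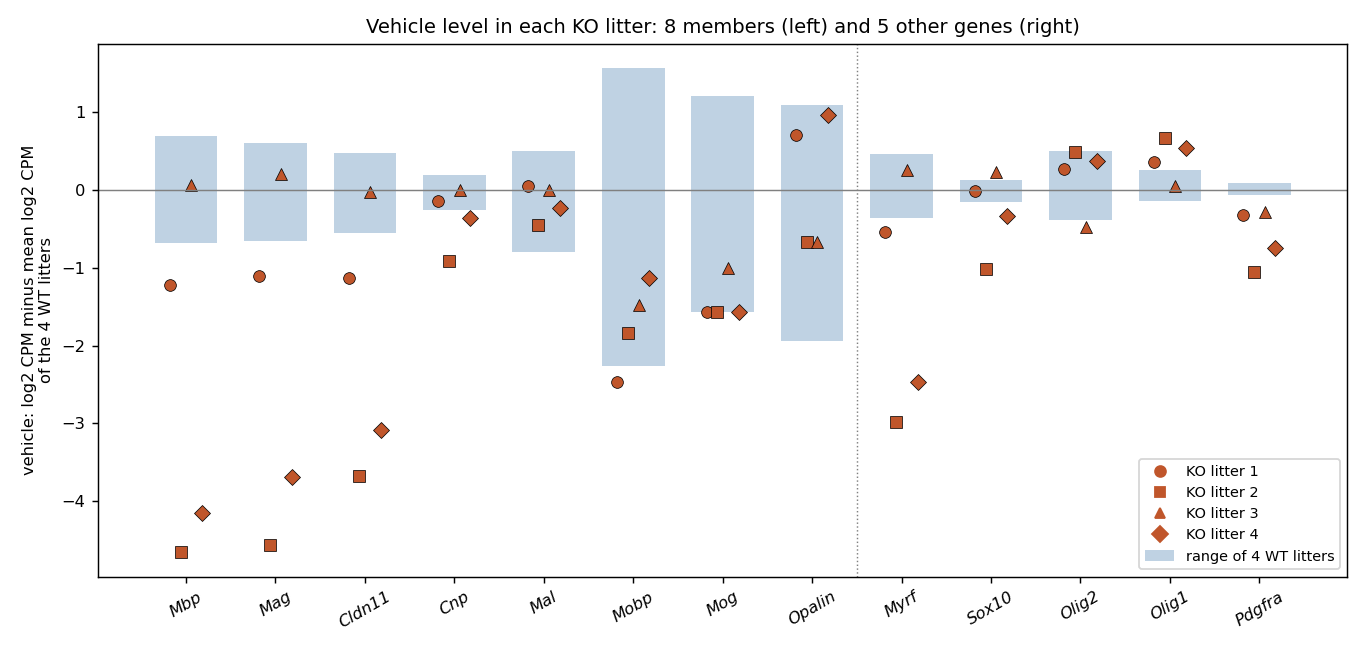
Vehicle level of each KO litter relative to the mean of the 4 WT vehicle litters (log2 CPM difference, y axis) for 8 myelin genes and, right of the dotted line, 5 other genes of the oligodendrocyte lineage, where symbols mark KO litters and shaded boxes the range of the WT litters. KO litters 2 and 4 lie between -4.66 and -3.09 for *Mbp*, *Mag* and *Cldn11*, KO litter 1 between -1.22 and -1.10, and KO litter 3 between -0.02 and 0.21.

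Marker levels moved with these litters. In vehicle the number of 31 other myelin and oligodendrocyte genes lying below all 4 WT litters was 13, 22, 3 and 18 for KO litters 1 to 4, while 22.3%, 34.0%, 18.7% and 28.0% of all genes in the table did so. Of the 10 astrocyte markers 5, 8, 0 and 7 lay below all WT litters, with summed levels of 7076, 5386, 8416 and 5997 CPM. Of the 9 precursor markers 4, 6, 3 and 6 did. Their part in the genotype differences was not tested.

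Other genes of the pathway were tested in the same fits, in which 23.7% of all genes passed as higher and 20.2% as lower in WT, and 25.3% and 24.2% in KO. Of 34 other myelin and oligodendrocyte genes on a list, 30 were tested, and 3 passed as higher and 15 as lower in WT, with a median log2 change of -0.42 against -0.02 over all genes. In KO 1 passed as higher and 17 as lower, with a median of -0.58 against -0.03. The largest falls in WT over this list and a list of transcription factors were those of *Gpr37*, a receptor of the lineage (-1.28 ± 0.29, edgeR, adjusted p = 0.00448), *Ndrg1* (-1.20 ± 0.12, adjusted p = 1.88e-05) and *Plxnb3*, a semaphorin receptor (-1.17 ± 0.29, adjusted p = 0.00828). In KO they were *Gpr37* (-3.02 ± 0.32, edgeR, adjusted p = 2.88e-05), *Gjb1*, a gap junction protein of myelin (-3.02 ± 0.97, adjusted p = 0.0241), and *Plxnb3* (-2.32 ± 0.32, adjusted p = 0.000183). Stimulated KO litters 1 and 4 had the same *Gjb1* value, -2.29 log2 units relative to the stimulated WT mean, as libraries without reads do. The size of its fall is therefore uncertain.

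Among 11 transcription factors of the lineage, 2 passed as higher and 5 as lower in WT, beside 23.7% and 20.2% of all genes. In KO 2 passed as higher and 6 as lower, beside 25.3% and 24.2%. The largest rises in WT were *Zfp536* (1.89 ± 0.16, edgeR, adjusted p = 4.94e-06), *Nkx2-2*, a factor of oligodendrocyte specification (1.43 ± 0.11, adjusted p = 2.19e-06), and, from the first list, *Aspa*, which cleaves N-acetylaspartate (0.78 ± 0.17, adjusted p = 0.00343). In KO they were *Zfp536* (1.87 ± 0.15, edgeR, adjusted p = 3.70e-06), *Nkx2-2* (1.38 ± 0.10, adjusted p = 2.37e-06) and *Septin4* (0.36 ± 0.13, adjusted p = 0.0405). *Sox10* changed by -0.39 ± 0.14 in WT (edgeR, adjusted p = 0.0409) and by -0.94 ± 0.14 in KO (adjusted p = 0.000276), and *Myrf* by -0.74 ± 0.24 (adjusted p = 0.0266) and -1.11 ± 0.26 (adjusted p = 0.00492).

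Markers of other cells are counted beside the shares of all genes given above, 23.7% higher and 20.2% lower in WT and 25.3% and 24.2% in KO. Of 9 precursor markers 1 passed as higher and 7 as lower in WT, and 1 and 8 in KO. Of 10 astrocyte markers 3 passed as higher and 4 as lower in WT, and 2 and 5 in KO. Among 7 neuronal markers tested, 2 passed as higher and 2 as lower in WT, with summed levels of 22.1 to 25.9 CPM in vehicle and 61.7 to 94.5 CPM in LPS + IFNγ, and 2 and 3 passed in KO. The median neuronal marker did not rise with the sum, at 1.21 to 1.48 log2 CPM in WT vehicle and 0.63 to 1.37 log2 CPM in WT LPS + IFNγ. Of 5 tested genes of Schwann and ensheathing cells 1 passed as higher and 1 as lower in WT, and 1 and 2 in KO. Fibroblast markers gave 0 higher and 1 lower of 4 in WT and 0 and 2 in KO, and ependymal markers 0 and 1 of 3 in WT and 0 and 2 in KO. *P2ry12*, the 1 microglial marker tested, passed as higher in KO, where its level reached 1.78 CPM. Their part in the fall of the myelin genes was not tested.

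Across the 16 libraries *Mbp* went with *Mag* at Pearson r = 0.996, with *Cldn11* at 0.971 and with *Cnp* at 0.949, and with *Mal* at 0.618 and *Mobp* at 0.582. *Mobp* and *Mog* had r = 0.792. These values describe libraries that share litters and conditions. The genes whose log2 CPM was most like the members' mean z-score, among 13497 genes with a mean of at least 0 log2 CPM, were *Abhd3* (r = 0.979), *Pcdh10* (0.973), *Bdh2* (0.973), *Pygb* (0.969) and *Cadm4* (0.968). After each condition's mean was taken off they were *Slc27a1* (0.955), *Abhd3* (0.950), *Ddr1* (0.949), *Kif19a* (0.949) and *Id4* (0.948).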

How the data were processed

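Poly-A RNA was sequenced without strand information by the authors, who assigned reads with Salmon 1.7.0 to RefSeq transcripts (GRCm39) and deposited, per transcript, expected counts and TPM with effective lengths, and, per gene, the signal that they call CPM, made from length-scaled counts and adjusted library sizes in limma 3.58.1, and its log2. The 16 columns were matched to libraries by label, and 0 libraries were left unmapped. Expected counts were summed per gene, and rounded to whole numbers for the count tests, over 106440 of 129698 transcripts paired with a symbol by RefSeq accession, which held 96.7% to 97.3% of reads. TPM was summed per gene.

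Responses and their difference were tested with edgeR 4.0.16 (R 4.3.3), by its quasi-likelihood test with TMM factors and offsets for effective length, on genes kept by filterByExpr (minimum count 10), with p-values adjusted by Benjamini-Hochberg and called under 0.05. Litters were blocks within genotype, after the study's design formula. For the genotype comparisons the model held 4 condition means and no litter. The labels name 2 wells of each litter as a pair. On log2 CPM centred by condition, libraries of a litter correlated at r = 0.181 to 0.540 across genes, while the same litter numbers in different genotypes gave -0.199 to 0.333 and were not paired. Standard errors were derived from the edgeR test, as the size of the log2 change over the square root of its F statistic. In the response fits they reflect the spread of responses among litters, pooled over both genotypes. In the genotype fits they reflect the spread of libraries within conditions, where the 2 libraries of a litter count as separate.

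Alternatives covered DESeq2 1.42.0, limma-voom, limma on the deposited log2 CPM, size factors, length offsets, the filter, the block, subsets, leaving out each litter, pseudocounts and, added later, recovered counts and leaving out KO litters 2 and 4. The fits were also run on simulated counts, whose litters differed far less than the KO litters did in *Mbp*, so that spread was not covered. Named genes are the members, for each response the 3 called genes of the related lists with the largest rise and fall, and the 5 genes most like the members by each of 2 measures. *Sox10*, *Myrf*, *Olig1*, *Olig2* and *Pdgfra* were added after their values were seen, and the values of 1 further gene counted in the related lists are not reported here. Members and lists were chosen with earlier results of these data known. Sequences are from RefSeq (GRCm38.p6) and positions from GENCODE (GRCm39). Python 3.11.15 with pandas 2.3.3 and matplotlib 3.10.9 was used.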

Additional observations from a re-analysis of the deposited data

Results flagged for a closer look

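In 48 groups of 4 litters (levels and responses of 8 genes), 3 had 1 litter far from the others by Dixon's criterion, where chance gives about 1 in 20 groups. The *Mog* level in KO vehicle was -3.56 log2 CPM in litter 3, above the other KO litters, which had no read, and this litter had 1.01 reads. The *Mog* response in KO was 0.71 log2 units in litter 1, against values near 0 in the other litters, and rests on 1.24 reads in the stimulated library. The *Mal* level in WT LPS + IFNγ was -0.0499 log2 CPM in litter 4, while WT litters 1 to 3 lay between -1.48 and -1.34.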

How the results depend on the processing

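The 3 calls in WT became 5 in a fit of the 8 WT libraries alone and 1 without the replicate block, which also left 1 of the 5 in KO (*Mal* in both), and leaving out each litter gave 3 to 4 calls in WT and 5 to 6 in KO. In the fit of the 8 WT libraries alone 3786 of 15210 genes passed as lower. For the interaction DESeq2 called 1, and leaving out each litter gave 0 to 1, with *Mbp* called without KO litter 3. In vehicle DESeq2 called 1. In LPS + IFNγ DESeq2 called 2, limma on the deposited log2 CPM called 1, a replicate block by litter number, which pairs nothing across genotypes, gave 5, and leaving out each litter gave 0 to 4. Reversals touched only uncalled genes. *Opalin* in WT changed by 0.0039 with DESeq2, 0.089 with limma on the deposited table, 0.0012 without the filter and -1.003 to 0.67 without single litters. *Opalin* between genotypes in vehicle differed by 0.41 with limma-voom, 0.084 with limma on the deposited table and -0.55 to 0.32 without single litters. The *Mog* interaction was 0.27 without the replicate block, 0.059 without KO litters 2 and 4 and -0.90 to 0.86 without single litters. The *Mobp* interaction was 0.15 with limma-voom, 0.12 without the replicate block, 0.0063 on recovered counts and -0.97 to 0.55 without single litters, and the *Mobp* response in KO -1.31 to 0.21. The cause was not tested. Over all genes, the 0 calls of the interaction became 113 higher and 197 lower with DESeq2, 125 and 192 without KO litter 3, and at most 1 otherwise. The 0 calls in vehicle became 486 and 295 with DESeq2, 590 and 720 without KO litter 3, 117 and 36 without WT litter 1, and at most 3 otherwise. The 426 higher and 382 lower in LPS + IFNγ became 1266 and 1236 with DESeq2, 735 and 736 with limma on the deposited table, 200 and 187 with limma-voom, 1014 and 1192 with the replicate block, 1499 and 1834 without KO litter 3, 630 and 767 without WT litter 1, 148 and 72 without KO litter 1, 7 and 6 without KO litter 2, at most 2 in either direction without KO litter 4, WT litter 2, 3 or 4 or both KO litters 2 and 4, and 0 in a fit of the 8 stimulated libraries alone. Depth limits *Mog*, *Opalin* and *Ermn*, with at most 21 reads in a library.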
